A study of Homo sapiens with 30 samples.

Results

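Small nucleolar RNA host genes are transcribed and spliced RNAs whose introns carry small nucleolar RNAs. The members described here are the genes named SNHG followed by a number, together with GAS5, ZFAS1 and EPB41L4A-AS1. They were chosen with earlier results of these data known, by a rule on names that used no measured value. This gave 33 genes among the 60612 genes of the table of the knockout experiment. The tables of the overexpression and knockdown experiments held 56303 genes each and 29 of the 33 members, 4 of them under an older symbol, and did not hold SNHG26, SNHG27, SNHG30 or SNHG31. The libraries were made from 5637 cells, a human bladder carcinoma line, in 3 experiments with 30 libraries in 10 groups of 3. In the first experiment, RBPMS, an RNA-binding protein, was knocked out by CRISPR in the groups KO1 and KO2, each beside its own wild-type group, WT1 and WT2. In the second, cells overexpressed the ANKRD10-1 or the ANKRD10-2 transcript of ANKRD10 or carried the empty Vector. In the third, cells received the siRNA siANKRD10-1, siANKRD10-2 or the control siNC. The knockout lines were expanded from single clones according to the study, so an effect of the clone and an effect of RBPMS loss cannot be told apart within a line. The study describes ANKRD10-1 overexpression and siANKRD10-2 treatment as done in RBPMS-knockout cells, while the labels name only 5637 cells for these libraries, and which cells they were is not settled here. Nothing in the labels says that the 3 libraries of a group came from separate cultures, so p-values measure the spread between these libraries, which may be technical.

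In a host gene, the snoRNA is cut out of the excised intron and guides the chemical modification of ribosomal or other RNA: box C/D snoRNAs direct methylation of the ribose, box H/ACA snoRNAs direct pseudouridylation, and scaRNAs guide the same changes on spliceosomal RNAs in Cajal bodies. The spliced exons are left behind as a long RNA, which in many of these genes is poorly protected, since ribosomes that meet its short reading frames expose it to nonsense-mediated decay. Several hosts begin with a C followed by a run of pyrimidines, the 5′ terminal oligopyrimidine (TOP) start that they share with messenger RNAs of ribosomal proteins and that ties a transcript to growth signals. In the annotation, 31 of the 33 members held small RNA genes within their bounds, 190 in all. Of these, 162 were box C/D snoRNAs, 24 were box H/ACA snoRNAs and 4 were scaRNAs. Whether each lies in an intron was not checked, and the annotated exons of SNHG9 cover its whole span of 551 bases. Box C/D snoRNAs alone were carried by 13 members, box H/ACA snoRNAs alone by 11, a scaRNA by 4 and both classes of snoRNA by 3. SNHG14, the long transcript of the Prader-Willi region, held 83 of them, SNHG23 held 41, GAS5 held 11 and SNHG1 held 8, whereas none was annotated inside SNHG27 or SNHG28.

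The annotated start sites were read for the letters of a TOP start, a feature for which this family is known. RefSeq promoters on GRCh38.p14 were listed for 28 members, and each window below runs from 20 bases before the annotated first base to 19 bases after it, 5′ to 3′ on the strand of the gene. Capitals mark an unbroken run of C and T that starts with C, at or near the annotated first base. The first 6 windows have such a run at the annotated start, the following 3 have it within 5 bases of the start, and GAS5 and SNHG1 have none by this definition.
ZFAS1: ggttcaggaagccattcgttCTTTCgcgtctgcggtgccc
SNHG5: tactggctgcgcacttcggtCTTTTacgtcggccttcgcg
SNHG32: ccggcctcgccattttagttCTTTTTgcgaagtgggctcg
SNHG19: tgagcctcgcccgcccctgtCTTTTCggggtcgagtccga
SNHG4: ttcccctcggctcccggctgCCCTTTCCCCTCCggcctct
SNHG12: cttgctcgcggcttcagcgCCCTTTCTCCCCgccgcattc
SNHG17: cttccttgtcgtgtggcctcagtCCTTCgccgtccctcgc
SNHG16: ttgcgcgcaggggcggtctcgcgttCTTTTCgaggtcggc
SNHG8: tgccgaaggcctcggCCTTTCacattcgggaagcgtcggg
GAS5: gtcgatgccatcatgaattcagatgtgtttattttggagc
SNHG1: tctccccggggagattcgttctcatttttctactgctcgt
On the plus strand, these windows lie at chr20:49278622-49278661 for ZFAS1, chr6:31834896-31834935 for SNHG32, chr5:139274081-139274120 for SNHG4, chr17:76557744-76557783 for SNHG16 and chr4:118278742-118278781 for SNHG8. On the minus strand, they lie at chr6:85678714-85678753 for SNHG5, chr16:2155339-2155378 for SNHG19, chr1:28581854-28581893 for SNHG12, chr20:38435309-38435348 for SNHG17, chr1:173869026-173869065 for GAS5 and chr11:62855866-62855905 for SNHG1. A C at the annotated first base with at least 4 further C or T after it was found in 7 of the 28 listed members (25.0%): ZFAS1, SNHG4, SNHG5, SNHG12, SNHG18, SNHG19 and SNHG32. The share was 4.07% of all 35116 listed promoters and 54.3% of 81 promoters of cytosolic ribosomal protein genes. A run starting within 5 bases of the annotated start was found in 12 members (42.9%) against 21.1% of all promoters. The E-box letters CACGTG, which read the same on both strands and which MYC binds, stood in the promoter of 2 of the 28 members (7.14%), SNHG7 and SNHG30, against 7.26% of all promoters. SNHG6, SNHG9, SNHG15, SNHG23 and SNHG25 had no listed promoter. A match describes the letters of the window and was not tested as a site. The counts were read on GENCODE gene models, whose starts lie within 5 bases of the RefSeq start for 12 of the 28 listed members and further away for 16. The RefSeq window of GAS5 starts 163 bases upstream of the counted gene and so lies outside it, and that of SNHG14 lies 154975 bases upstream. Both count here as members without a TOP start, and the RefSeq starts of SNHG12, ZFAS1 and SNHG32 lie 1259, 464 and 308 bases inside the counted gene.

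The libraries held 44593108 to 69723937 counts in the knockout experiment, 31736779 to 47493499 in the overexpression experiment and 28511029 to 32784584 in the knockdown experiment. RBPMS was lower in the KO1 libraries (14.3 to 15.2 CPM) than in WT1 (39 to 42.2), a change of -1.44 on the log2 scale (SE 0.07, adjusted p = 1.25e-07), and lower in KO2 (19 to 21.3) than in WT2 (42.4 to 44.2), with -1.09 (SE 0.059, adjusted p = 5.07e-08). It was not called with ANKRD10-1 against Vector (-0.19, adjusted p = 0.472) or with siANKRD10-2 against siNC (0.03, adjusted p = 0.894). ANKRD10 as a whole gene rose in both overexpression groups (0.67 and 0.41 on the log2 scale) and fell in siANKRD10-1 and siANKRD10-2 (-0.24 and -0.25). It fell in both knockouts as well, with -1.18 (SE 0.052, adjusted p = 6.55e-08) in KO1 and -0.76 (SE 0.04, adjusted p = 3.98e-08) in KO2. These counts do not separate its transcripts. All 10 epithelial markers were at or above 1 CPM in every group, leukocyte markers other than CD68 were under 1 CPM in the overexpression and knockdown libraries, and erythroid markers were at or near 0. Within the knockdown experiment, summed epithelial markers were at 3900 to 4060 CPM with siANKRD10-2 and 5750 to 6100 CPM with siANKRD10-1. Both lay below siNC at 6510 to 6950 CPM. Of the 10 markers, 9 were called lower with siANKRD10-2 and 5 with siANKRD10-1, and 0 were called higher. Mitochondrial genes took 8.92% to 10.5% of counts with siANKRD10-2, 11.9% to 13% with siANKRD10-1 and 12% to 13.8% with siNC. In the overexpression experiment, the epithelial markers were at 4110 to 4650 CPM with ANKRD10-2 and 3920 to 4070 CPM with ANKRD10-1. Both lay above Vector at 3610 to 3740 CPM. Of the 10 markers, 6 were called higher and 1 lower with ANKRD10-2, and 4 higher and 0 lower with ANKRD10-1. Mitochondrial genes took 7.59% to 7.75% of counts with ANKRD10-2, 7.39% to 8.68% with ANKRD10-1 and 8.47% to 8.66% in Vector. In the knockout experiment, 3 of the 10 epithelial markers were called higher and 3 lower in KO1, and 3 higher and 5 lower in KO2. KRT13, a keratin of the urothelium, averaged 12.9 CPM in KO1 against 80.8 in WT1 and 4.45 CPM in KO2 against 110 in WT2. The 4 fibroblast markers together were at 0 to 0.182 CPM in KO1 against 3.91 to 5.47 in WT1 and at 0.718 to 0.751 CPM in KO2 against 4.79 to 5.12 in WT2, most of it LUM, a matrix proteoglycan. The 5 leukocyte markers summed to 1.2 to 1.59 CPM in KO2 against 0.0359 to 0.208 in WT2, most of it CD68 (mean 1.23 against 0.0653). The 3 endothelial markers summed to 1.36 to 3.06 CPM over all 4 groups, but they did not move together. PECAM1 averaged 1.65 CPM in KO1 against 0.604 in WT1 and 1.33 in KO2 against 0.487 in WT2. VWF averaged 0.74 CPM in KO1 and 0.827 in KO2 against 1.26 in each wild-type group. Of the 2 endothelial markers tested, 1 was called higher and 0 lower in each knockout. Mitochondrial genes took 6.05% to 6.71% of counts in KO2 against 7.38% to 7.84% in WT2. The part of these differences in the results was not tested. In bulk libraries, a smaller share of expressing cells and less RNA per cell cannot be told apart.

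A small set of members made up most of the family's RNA. Levels are CPM, counts scaled to the library size with the TMM factors of edgeR, and levels of different genes are compared only per kb of exon. In WT1, SNHG29, which hosts SNORD49A and SNORD65, was highest at 39.9 ± 2.17 CPM per kb (SD, n = 3). It was followed by SNHG6 at 29.7 ± 2.73 and ZFAS1 at 26.5 ± 2.10, whose mean ± SD ranges overlapped, and then by SNHG1 at 19.5 ± 0.524 and GAS5 at 18.4 ± 0.633, whose ranges overlapped as well. In Vector cells, SNHG6 at 87.9 ± 4.0 and ZFAS1 at 83.9 ± 3.24 CPM per kb were not separated by their spread. GAS5 followed at 17.4 ± 0.7 and SNHG29 at 14.5 ± 0.548. In siNC cells, SNHG6 was highest at 49.0 ± 5.04 CPM per kb, ZFAS1 followed at 16.8 ± 1.87, and GAS5 at 10.6 ± 0.329 and SNHG29 at 10.3 ± 0.551 did not differ beyond their spread. The 3 experiments are separate tables with controls of their own, and levels are not compared across them. Together the members took 716 to 748 CPM in WT1, 698 to 724 CPM in Vector and 357 to 389 CPM in siNC.

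At the low end, SNHG23, which holds a large snoRNA cluster, had 0 to 4 counts per library in the knockout experiment, 0 to 5 in the overexpression experiment and 0 in the knockdown experiment. SNHG27 had 0 counts in all libraries of the knockout experiment, which allows up to 3 counts per library. SNHG9, the host of SNORA78, had 0 to 7 counts in the overexpression and 0 to 2 in the knockdown libraries, and SNHG25, the host of SNORD104, had 0 to 13 in the overexpression libraries. These genes did not pass the filter on low counts there, which left 31 members tested in the knockout, 26 in the overexpression and 27 in the knockdown experiment. SNHG22 and SNHG28 were tested throughout, but in the knockout libraries SNHG22 was at 0.219 to 0.733 CPM.

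**Figure D1:**
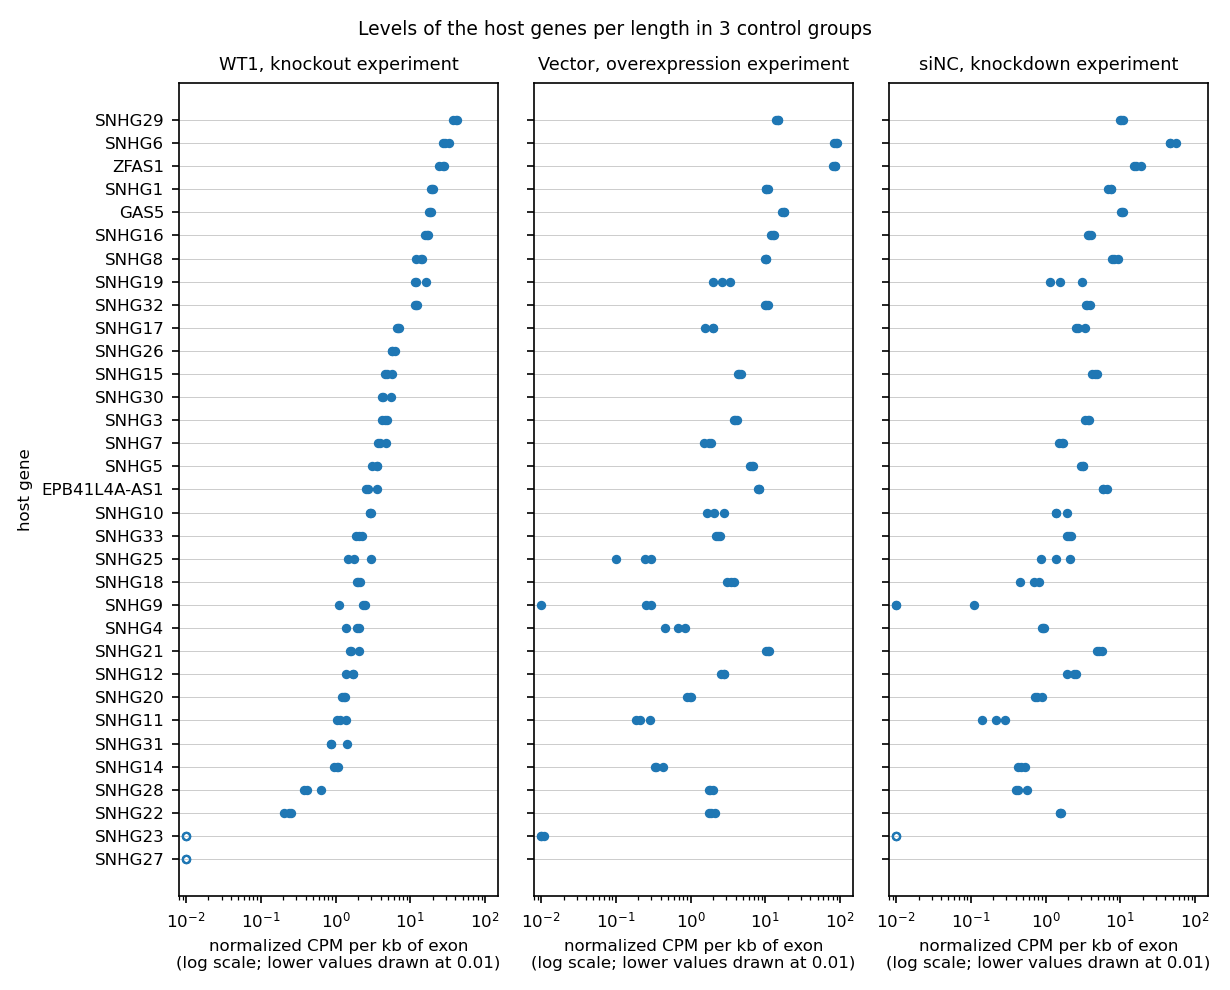
Level of each host gene in the control groups WT1, Vector and siNC, in normalized CPM per kb of exon on a log axis. Each point is 1 of 3 libraries, and values under 0.01 are drawn at 0.01. Points are open where all 3 libraries of a gene in that group were under 0.01. An empty row is a gene that the table does not hold. SNHG29, SNHG6 and ZFAS1 lead in WT1, whereas SNHG6 and ZFAS1 lead in Vector and siNC.

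The first comparison set the RBPMS knockout lines against their wild-type groups. Host genes were more often higher than lower in the KO1 cells: of 31 members tested, 15 were higher and 2 lower than in WT1 (edgeR's quasi-likelihood test, Benjamini-Hochberg adjusted p under 0.05), where 17.9% of all 17865 genes tested were called higher and 18.2% lower. In KO2, 11 of 31 were higher and 2 lower than in WT2, where 19.3% of all 18267 genes tested were called higher and 19.2% lower. The median log2 fold change of the members was 0.25 in KO1 and 0.08 in KO2, with the median of all genes tested at 0.00 and -0.02, and the KO2 median ran from 0.03 without KO2 replicate 3 to 0.13 without KO2 replicate 1. Summed over the members, KO1 held 940 to 944 CPM against 716 to 748 in WT1, and KO2 held 883 to 907 CPM against 763 to 802 in WT2. The groups of 3 libraries did not overlap for 64.5% of the members in KO1 (48.7% of all genes) and for 51.6% in KO2 (49.5% of all genes). A rise in both knockouts was called for 9 members, which are 60.0% of the 15 that rose in KO1 and 81.8% of the 11 that rose in KO2: EPB41L4A-AS1, SNHG1, SNHG3, SNHG4, SNHG12, SNHG15, SNHG16, SNHG17 and SNHG26. KO1 and KO2 have separate control groups, and over all 17445 genes tested in both the shares were 51.9% and 47.2%. With a log2 fold change of at least 1 also asked for, SNHG4 and SNHG9 were called in KO1, where 6.43% of all genes were, and 0 members in KO2, where 5.99% of all genes were.

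Among the box H/ACA hosts, SNHG4 (ENSG00000281398), which carries SNORA74 copies and lies on chromosome 5 from 139274102 to 139284899 (GRCh38), had the largest rise in KO1. Its level was 19.8, 20.7 and 16.4 CPM in KO1 against 9.1, 6.21 and 8.78 in WT1, and 17.3, 12.9 and 14.4 CPM in KO2 against 9.61, 8.71 and 8.29 in WT2. Every knockout library was above every wild-type library, by 1.24 on the log2 scale (SE 0.15, adjusted p = 8.52e-05) in KO1 and 0.74 (SE 0.12, adjusted p = 0.00036) in KO2. SNHG4 shares 626 exon bases on the same strand with MATR3, which encodes a nuclear matrix protein and whose levels ran from 60.1 to 149 CPM in WT2 and from 98.7 to 380 CPM in KO2. The change of MATR3 was not called in KO1 (0.66, SE 0.35, adjusted p = 0.17) or KO2 (1.16, SE 0.44, adjusted p = 0.0573), and how shared bases were counted was not tested. SNHG3, the host of the SNORA73 pair and a neighbor of RCC1 on chromosome 1, stood at 36.5, 37.7 and 31.3 CPM in KO1 against 17.4, 19.8 and 18.8 in WT1. In KO2 it stood at 30.2, 28.6 and 30.4 CPM against 19, 20.3 and 19.2 in WT2. Neither pair of groups overlapped, with log2 fold changes of 0.91 (SE 0.088, adjusted p = 1.81e-05) and 0.60 (SE 0.062, adjusted p = 9.8e-06). RCC1, the exchange factor of the GTPase Ran, shares 242 exon bases with SNHG3 on the same strand and rose by less, 0.35 in KO1 (SE 0.057) and 0.12 in KO2 (SE 0.04).

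EPB41L4A-AS1, which hosts SNORA13, was at 15.6, 13.5 and 15.8 CPM in KO1 against 9.12, 8.55 and 12.1 in WT1. In KO2 the values were 16.1, 14.3 and 15.3 CPM against 9.24, 10.7 and 10.9 in WT2. Knockout and wild-type libraries did not overlap in either comparison, and the log2 fold changes were nearly equal, 0.59 (SE 0.14, adjusted p = 0.00552) and 0.56 (SE 0.097, adjusted p = 0.000626). EPB41L4A, the protein-coding gene on the opposite strand, which shares 1659 exon bases with it, went the other way. It was at 0.664 to 1.43 CPM in KO1 against 9.98 to 12.2 in WT1 and at 2.61 to 4.44 CPM in KO2 against 14.5 to 16.3 in WT2, with log2 fold changes of -3.28 (SE 0.26, adjusted p = 4.23e-06) and -2.11 (SE 0.17, adjusted p = 1.01e-06). EPB41L4A was picked for its overlap after its values were seen, and whether the counting used strand is not given in the sources used here. SNHG17, the host of the SNORA71 family, rose by 0.55 (SE 0.068) in KO1 and by 0.42 (SE 0.056) in KO2, from 27.7 to 30 CPM across the wild-type libraries to 37 to 44.1 CPM across the knockout libraries. SNHG15, the host of SNORA9, rose by 0.39 (SE 0.091) and 0.37 (SE 0.072). SNHG8, the host of SNORA24, and SNHG7 were called in KO1 (0.38 and 0.59) and not in KO2, with 0.30 (adjusted p = 0.0743) and 0.08 (adjusted p = 0.443). The difference between the knockouts was called for SNHG7 (0.50) but not for SNHG8. Genes around SNHG7 differed in the same direction, with a median difference of 0.32 over 119 genes within 5 Mb and of 0.43 over 770 genes of chromosome 9. In KO2 against WT2 the median of chromosome 9 was -0.41 over 724 genes, and in KO1 against WT1 it was 0.07 over 730. Whether the difference of SNHG7 goes beyond that of its chromosome was not tested.

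Among the box C/D hosts, SNHG26 (ENSG00000228649), which carries SNORD93 on chromosome 7 from 22854178 to 22861579, was at 28.9, 30.3 and 30.1 CPM in KO1 against 16.6, 15 and 15.1 in WT1, and at 25.6, 24.7 and 27.1 CPM in KO2 against 15.8, 15.5 and 15.7 in WT2. The libraries of each group lay close together and the groups were far apart, with log2 fold changes of 0.93 (SE 0.075, adjusted p = 5.35e-06) and 0.71 (SE 0.066, adjusted p = 4.21e-06). The genes tested within 5 Mb of it had medians of -0.07 in KO1 (64 genes) and -0.03 in KO2 (67 genes). SNHG1, which hosts SNORD22 and the SNORD25 to SNORD31 cluster, was at 103, 97.9 and 105 CPM in KO1 against 71, 74.9 and 73.7 in WT1. Its values in KO2 were 113, 111 and 111 CPM against 85.7, 85.1 and 82.8 in WT2. Both knockouts were above their controls without overlap, by 0.47 (SE 0.05, adjusted p = 3.73e-05) and 0.40 (SE 0.039, adjusted p = 7.11e-06). SNHG16, the host of the SNORD1 family, rose by 0.42 (SE 0.054) and 0.35 (SE 0.05), and SNHG12, which carries snoRNAs of both classes, by 0.72 (SE 0.13) and 0.46 (SE 0.12). For SNHG12 the call in KO1 was lost against all 6 wild-type libraries (0.43, adjusted p = 0.0536) and the call in KO2 without KO2 replicate 1 (0.40, adjusted p = 0.0513).

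GAS5, named for its accumulation in growth-arrested cells and known as a decoy of the glucocorticoid receptor, was at 88.1, 93.1 and 79.1 CPM in KO1 against 64.1, 67.4 and 68.5 in WT1. In KO2 it was at 82, 81 and 80.1 CPM against 70.2, 77.7 and 74.6 in WT2. All knockout values lay above those of their controls, but the change passed the threshold in KO1 (0.38, SE 0.065, adjusted p = 0.000965) and not in KO2 (0.12, SE 0.047, adjusted p = 0.0577). ZFAS1, which carries the SNORD12 group at the promoter of ZNFX1, was at 57.1, 57 and 62.4 CPM in KO1 against 54.2, 60.5 and 63.3 in WT1, and at 58, 58.1 and 57.6 CPM in KO2 against 58.9, 64.3 and 62.2 in WT2. The KO1 values lay inside the WT1 range and the KO2 values just below WT2, with log2 fold changes of -0.01 (SE 0.069, adjusted p = 0.901) and -0.10 (SE 0.048, adjusted p = 0.127). SNHG5, the host of the SNORD50 pair, was called in KO2 (0.37, SE 0.1, adjusted p = 0.0121) but not in KO1 (0.18, SE 0.12, adjusted p = 0.268), and the KO2 call was lost without KO2 replicate 3 (0.32, adjusted p = 0.0535). SNHG6, the host of SNORD87, was called in KO1 at 0.22 (SE 0.077, adjusted p = 0.0472), although its KO1 and WT1 libraries overlapped, and was not called without KO1 replicate 2 or 3 or WT1 replicate 1 or 2 (adjusted p = 0.0989 to 0.164). None of the 4 scaRNA hosts (SNHG10, SNHG20, SNHG21 and SNHG22) was called in either knockout, with KO1 values from -0.46 to 0.34.

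**Figure D2:**
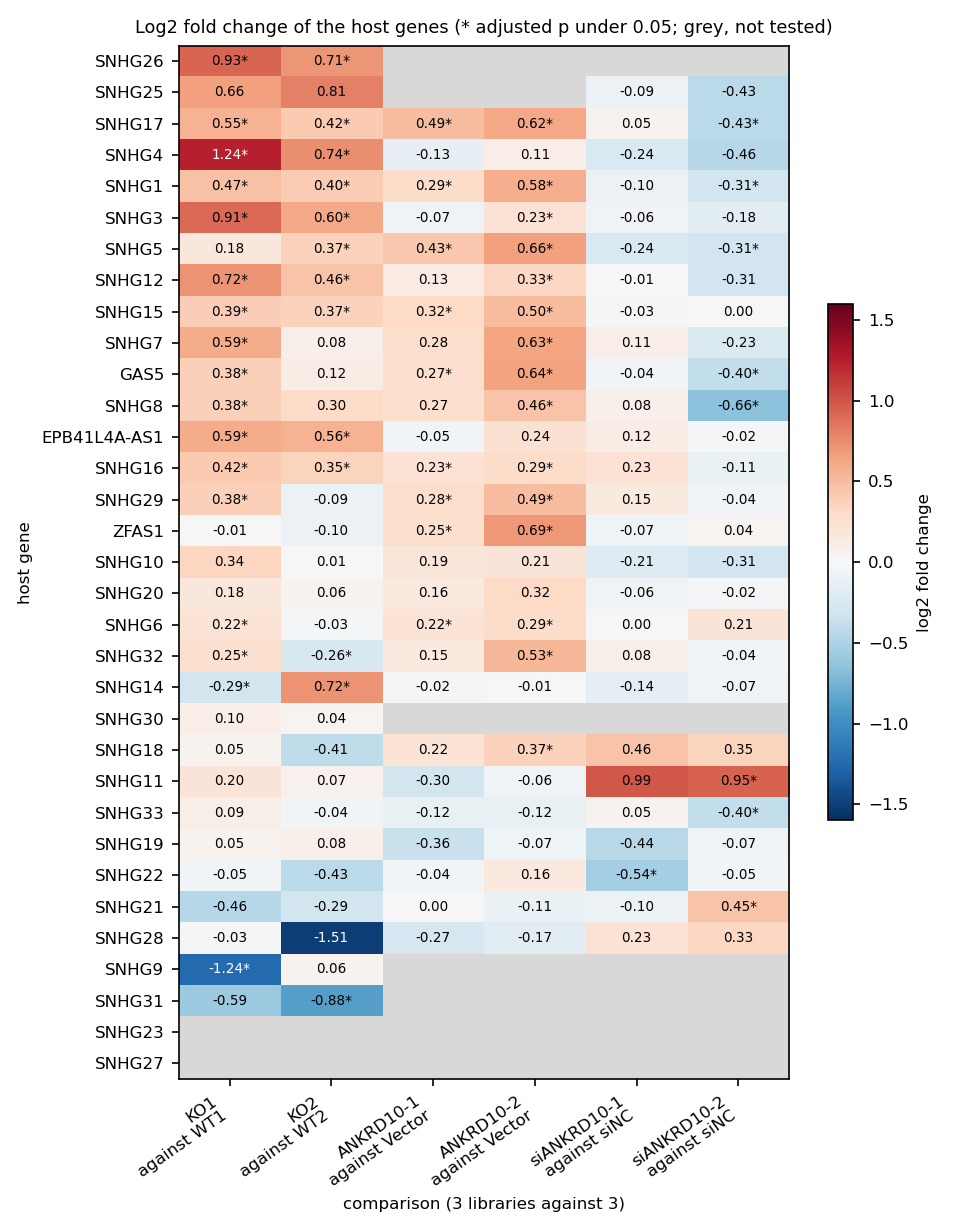
Log2 fold change of each host gene (rows) in each of the 6 comparisons of a treated with its control group (columns); the color gives the value printed in the cell, an asterisk marks an adjusted p under 0.05 and grey cells were not tested or not in the table. The knockout and ANKRD10-2 columns are mostly positive. Of 31 members, 15 were called higher in KO1 and 11 in KO2, where 17.9% and 19.3% of all genes were. Of 26 members, 9 were called higher with ANKRD10-1 and 15 with ANKRD10-2, where 3.5% and 10.7% of all genes were. Of 27 members, 6 were called lower and 2 higher with siANKRD10-2, where 18.7% and 17.6% of all genes were.

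The knockouts went apart on a few hosts. SNHG14 (ENSG00000224078), which runs through the imprinted Prader-Willi region on chromosome 15 from 24978583 to 25419462 and whose far end is antisense to UBE3A, was at 37.4, 34.9 and 35.6 CPM in KO1 against 46.4, 41 and 45 in WT1. In KO2 it was at 57.9, 58.5 and 60.7 CPM against 37.4, 33.8 and 35.7 in WT2. KO1 lay below and KO2 above its control with no overlap, by -0.29 (SE 0.066, adjusted p = 0.00497) and 0.72 (SE 0.052, adjusted p = 4.73e-07). The difference of the effects was -1.02 (SE 0.083, adjusted p = 2.13e-07). The control groups themselves differed for this gene, with WT2 below WT1 by -0.31 (SE 0.063, adjusted p = 0.0369), a call that was itself lost under 6 alternatives (adjusted p = 0.0735 to 0.177). With all 6 wild-type libraries as the control the call in KO1 was lost (-0.15, adjusted p = 0.222). SNRPN, which lies in the same region and shares 141 exon bases with SNHG14, was not called in KO1 (-0.15, adjusted p = 0.173) and rose in KO2 (0.40, SE 0.082, adjusted p = 0.00225), while the median of the tested neighbors within 5 Mb was -0.15 over 22 genes in KO1 and 0.06 over 25 genes in KO2.

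SNHG32, the TOP-start host of SNORD48 and SNORD52, was at 26.6, 24.5 and 25.4 CPM in KO1 against 21.2, 22.3 and 20.8 in WT1. In KO2 it was at 22.3, 22.6 and 21.3 CPM against 26.7, 28.2 and 24.2 in WT2. The changes of 0.25 (SE 0.072, adjusted p = 0.019) and -0.26 (SE 0.071, adjusted p = 0.0119) had opposite signs, and both calls were lost against all 6 wild-type libraries (0.09, adjusted p = 0.463, and -0.12, adjusted p = 0.34). Without KO1 replicate 1 or WT1 replicate 1 or 3 the KO1 call was lost too, as was the KO2 call without WT2 replicate 2 (adjusted p = 0.0564). Their difference of 0.51 (SE 0.098, adjusted p = 0.00119) was called. SNHG29 was at 186, 197 and 203 CPM in KO1 against 141, 153 and 157 in WT1, while KO2 at 152, 165 and 164 CPM lay just below WT2 at 167, 175 and 168. The rise in KO1 was 0.38 (SE 0.055, adjusted p = 0.000342), the value in KO2 was -0.09 (SE 0.042, adjusted p = 0.127), and the difference was 0.46 (SE 0.07, adjusted p = 0.000151). In all, the effects of KO1 and KO2 differed for 6 of 31 members, 5 with KO1 above KO2 and 1 below, where 23.3% of all genes tested were called. SNHG14 alone passed a log2 difference of at least 1, which 5.52% of all genes passed. Between the control groups, SNHG1 was higher in WT2 (0.21, SE 0.045, adjusted p = 0.0472) and SNHG14 lower, 2 of 31 members against 1.23% of all genes, and 0 members passed a log2 fold change of at least 1 (0.0873% of all genes). The call of SNHG1 was lost under 8 alternatives (adjusted p = 0.0905 to 0.168), among them each single library left out.

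Low members gave the other falls. SNHG9 was at 0.438, 0.479 and 0.463 CPM in KO1 against 1.36, 1.3 and 0.608 in WT1, with a mean of 43.3 normalized counts. KO1 lay below every WT1 library, the log2 fold change was -1.24 (SE 0.41, adjusted p = 0.0337), and KO2 was at 0.06 (SE 0.3, adjusted p = 0.901). SNHG31 was at 1.27, 0.997 and 0.923 CPM in KO2 against 2.47, 1.26 and 2.11 in WT2. The groups overlapped, and the log2 fold change was -0.88 (SE 0.3, adjusted p = 0.0361). The call of SNHG9 was lost without any single KO1 library or WT1 replicate 1 or 2 (adjusted p = 0.0564 to 0.131), and that of SNHG31 without KO2 replicate 2 or 3 or WT2 replicate 1 or 3 (adjusted p = 0.0923 to 0.161). SNHG28 had the lowest value of all in KO2, -1.51 (SE 0.67, adjusted p = 0.0947), with 0.125 to 0.696 CPM in KO2 and 0.283 to 1.65 CPM in WT2. All 2242 exon bases of SNHG28 are shared with another entry of that name on the same strand, and 270 with VSIG8. How shared bases were counted was not tested.

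The second experiment asked how overexpression of each ANKRD10 transcript changed the hosts. With ANKRD10-2, 15 of 26 members were higher and 0 lower than in Vector, where 10.7% of all 20177 genes tested were called higher and 9.25% lower. With ANKRD10-1, 9 of 26 were higher and 0 lower, where 3.5% of all 20457 genes tested were called higher and 2.81% lower. At an unadjusted p under 0.05, 17 members passed with ANKRD10-2 and 13 with ANKRD10-1. The share of all genes at that threshold was not computed, so these counts have no background. DESeq2 as the test left the lower calls at 0. The median log2 fold change of the members was 0.30 with ANKRD10-2 and 0.18 with ANKRD10-1, beside -0.01 and 0.00 for all genes tested. Summed over the members, the level was 962 to 1032 CPM with ANKRD10-2, 797 to 843 CPM with ANKRD10-1 and 698 to 724 CPM in Vector, so that the 3 groups did not overlap. The groups did not overlap with Vector for 61.5% of the members with ANKRD10-2 (36.3% of all genes) and for 13 of 26 with ANKRD10-1 (25.7% of all genes). Both comparisons share the Vector libraries. A log2 fold change of at least 1 was reached by 0 members in either comparison, and by 0.391% of all genes with ANKRD10-1 and 1.19% with ANKRD10-2. Set side by side, the 9 members called with ANKRD10-1 (GAS5, ZFAS1, SNHG1, SNHG5, SNHG6, SNHG15, SNHG16, SNHG17 and SNHG29) were all called with ANKRD10-2. With ANKRD10-1, the call was lost without its replicate 1 for ZFAS1 (0.19, adjusted p = 0.0552), its replicate 2 for SNHG15 (0.30, adjusted p = 0.0504), its replicate 3 for SNHG17 (0.40, adjusted p = 0.0699) and any of 4 libraries for SNHG6. With ANKRD10-2, the calls of SNHG3, SNHG12 and SNHG18 were lost under total counts alone and without single libraries, among them ANKRD10-2 replicate 1 (adjusted p = 0.0631 to 0.0636).

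ZFAS1 had the largest change with ANKRD10-2. It was at 315, 301 and 296 CPM with ANKRD10-2, 240, 212 and 218 CPM with ANKRD10-1 and 189, 180 and 195 CPM in Vector. The 3 groups formed separate steps, with log2 fold changes of 0.69 (SE 0.049, adjusted p = 3.05e-07) for ANKRD10-2 and 0.25 (SE 0.051, adjusted p = 0.00699) for ANKRD10-1. GAS5 was at 101, 98.1 and 96.1 CPM with ANKRD10-2, 74.1, 76 and 78.3 CPM with ANKRD10-1 and 65.1, 60.3 and 64.2 CPM in Vector. The same order without overlap was seen, with 0.64 (SE 0.051, adjusted p = 1.24e-06) for ANKRD10-2 and 0.27 (SE 0.049, adjusted p = 0.00277) for ANKRD10-1. SNHG1 was at 60.4, 54.9 and 59.9 CPM with ANKRD10-2, 48.5, 48.4 and 46.3 CPM with ANKRD10-1 and 40.9, 37.9 and 38.6 CPM in Vector. It too rose in steps, by 0.58 (SE 0.059, adjusted p = 1.43e-05) and 0.29 (SE 0.054, adjusted p = 0.00321). SNHG5 was at 31.8, 29 and 26.7 CPM with ANKRD10-2, 25.4, 24.8 and 25 CPM with ANKRD10-1 and 19.4, 18.6 and 17.7 CPM in Vector. Its changes were 0.66 (SE 0.077, adjusted p = 5.14e-05) and 0.43 (SE 0.066, adjusted p = 0.000443), and the 3 groups did not overlap.

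Among the H/ACA hosts, SNHG17 was at 11.9, 11.8 and 11.6 CPM with ANKRD10-2, 10.8, 9.52 and 12.2 CPM with ANKRD10-1 and 8.3, 8.23 and 6.62 CPM in Vector. Both overexpression groups lay above Vector, by 0.62 (SE 0.1, adjusted p = 0.000747) and 0.49 (SE 0.11, adjusted p = 0.0114), while they overlapped each other. SNHG15 was at 23.4, 22.7 and 22.9 CPM with ANKRD10-2, 20.3, 21 and 19.9 CPM with ANKRD10-1 and 16.2, 17 and 15.7 CPM in Vector. It rose by 0.50 (SE 0.069, adjusted p = 0.000203) and 0.32 (SE 0.07, adjusted p = 0.00856) without overlap. SNHG7 and SNHG8 rose with ANKRD10-2 (0.63, SE 0.097, and 0.46, SE 0.093) and did not pass the threshold with ANKRD10-1 (0.28, adjusted p = 0.111, and 0.27, adjusted p = 0.0507). EPB41L4A-AS1 was at 37.2, 32.9 and 27.3 CPM with ANKRD10-2, 25.6, 26.1 and 27.8 CPM with ANKRD10-1 and 27.9, 27.1 and 27.5 CPM in Vector. One ANKRD10-2 library lay inside the Vector range, and neither change was called (0.24, SE 0.092, adjusted p = 0.0827, and -0.05, SE 0.061, adjusted p = 0.687). SNHG4, the largest riser of KO1, was at 0.889 to 1.61 CPM in Vector and was not called with ANKRD10-2 (0.11, SE 0.27, adjusted p = 0.819) or ANKRD10-1 (-0.13, SE 0.27, adjusted p = 0.844). Its exons took 1926 bases in the gene model of this experiment and 4469 in that used for the knockout experiment.

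Compared directly, ANKRD10-2 was above ANKRD10-1 for 7 of 26 members and below for 0, where 4.15% of all genes tested were called higher and 3.1% lower. ZFAS1 differed by 0.45 (SE 0.055, adjusted p = 3.12e-05), SNHG32 by 0.38 (SE 0.068, adjusted p = 0.00138) and GAS5 by 0.37 (SE 0.052, adjusted p = 0.000113). The others were SNHG7 at 0.35, SNHG3 at 0.30, SNHG1 at 0.29 and EPB41L4A-AS1 at 0.29, and 24 of the 26 values were above 0. For EPB41L4A-AS1 the groups overlapped and the call was lost under 6 alternatives, with 0.18 (adjusted p = 0.194) without ANKRD10-2 replicate 1. The call of SNHG7 was lost without any ANKRD10-1 library or ANKRD10-2 replicate 2 (adjusted p = 0.0562 to 0.109) and that of SNHG3 without ANKRD10-1 replicate 1 (adjusted p = 0.094). Without ANKRD10-1 replicate 1, 4 members were called, and 0 passed a log2 fold change of at least 1 (0.359% of all genes). By small RNA class, 8 of 10 box C/D hosts, 5 of 9 H/ACA hosts, 2 of 2 mixed hosts and 0 of 4 scaRNA hosts rose with ANKRD10-2. By annotated start, 5 of 7 TOP-start members (ZFAS1, SNHG5, SNHG12, SNHG18 and SNHG32) and 8 of 17 members without such a start rose, with medians of 0.37 and 0.24. In the knockouts, 3 of 7 TOP-start members rose in KO1 and 3 of 7 in KO2, against 10 of 20 and 7 of 20 members without such a start. Members whose run starts only within 5 bases, such as SNHG8 and SNHG16, count as without a TOP start here, as do GAS5 and SNHG1. The difference between these classes was not tested.

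**Figure D3:**
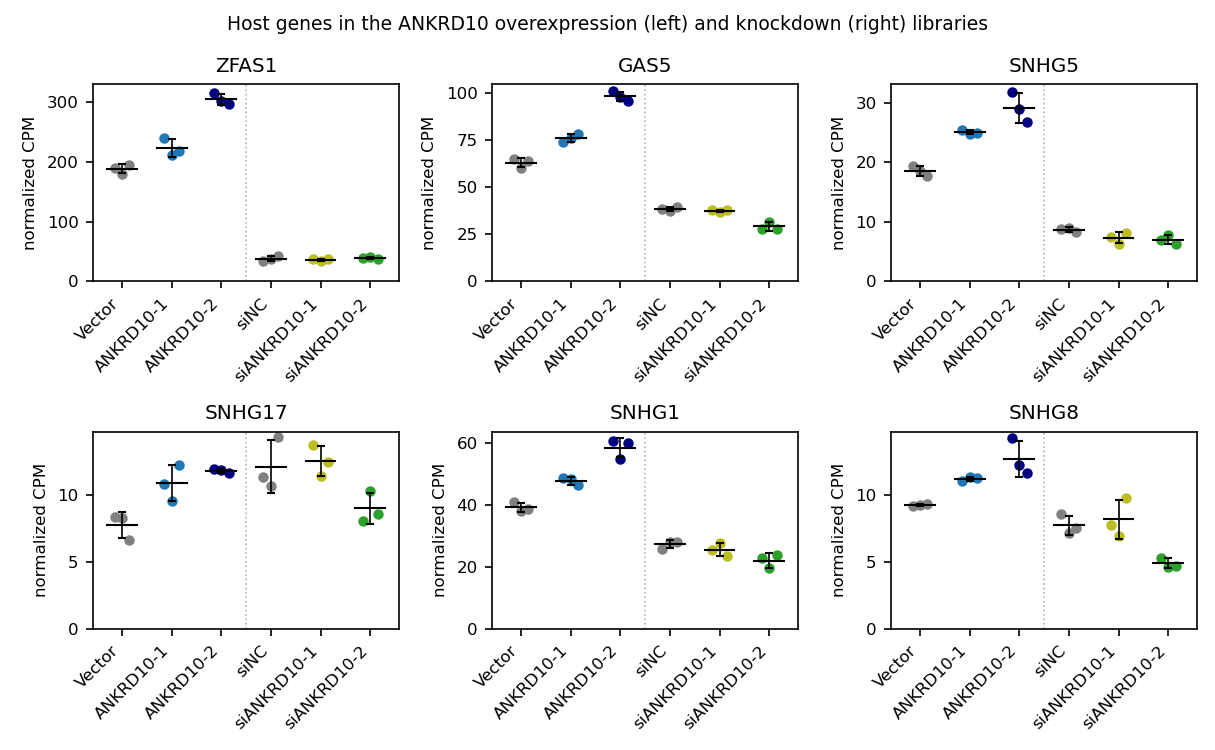
Normalized CPM (linear axis from 0) of 6 host genes in the overexpression libraries (Vector, ANKRD10-1, ANKRD10-2) and, right of the dotted line, the knockdown libraries (siNC, siANKRD10-1, siANKRD10-2); points are libraries, and bars give the mean and SD of 3. All 6 are highest with ANKRD10-2 among the overexpression groups by mean; levels are not to be compared across the dotted line, which divides separate experiments.

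The third experiment asked what loss of each ANKRD10 transcript did. With siANKRD10-2, 6 of 27 members (22.2%) were lower and 2 (7.4%) higher than in siNC, where 18.7% of all 18924 genes tested were called lower and 17.6% higher. With siANKRD10-1, 1 of 27 was lower and 0 higher, where 5.52% of all 18785 genes tested were called lower and 5.08% higher. An unadjusted p under 0.05 was found for 5 members, and the share of all genes at that threshold was not computed. The medians of the members were -0.07 and -0.03 on the log2 scale, and without siNC replicate 3 they were -0.14 and 0.02, so that the sign with siANKRD10-1 rests on that library. The summed levels overlapped, at 331 to 361 CPM with siANKRD10-2, 364 to 380 CPM with siANKRD10-1 and 357 to 389 CPM with siNC. The groups did not overlap with siNC for 40.7% of the members with siANKRD10-2 (46.5% of all genes) and 22.2% with siANKRD10-1 (28.3% of all genes). Both comparisons share the siNC libraries. Calls with a log2 fold change of at least 1 numbered 0 among the members, and they made up 0.367% of all genes with siANKRD10-1 and 2.64% with siANKRD10-2.

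SNHG8 had the largest fall, at 5.34, 4.66 and 4.73 CPM with siANKRD10-2 against 8.58, 7.2 and 7.55 with siNC. All siANKRD10-2 libraries lay below siNC, by -0.66 (SE 0.12, adjusted p = 0.000113), while siANKRD10-1 at 7.8, 6.99 and 9.81 CPM overlapped it (0.08, SE 0.13, adjusted p = 0.762). GAS5 was at 28, 31.8 and 27.8 CPM with siANKRD10-2, 37.7, 36.7 and 38 CPM with siANKRD10-1 and 38.6, 37.2 and 39.5 CPM with siNC. It was lower with siANKRD10-2 alone, by -0.40 (SE 0.067, adjusted p = 3.93e-05), with siANKRD10-1 at -0.04 (SE 0.062, adjusted p = 0.77). SNHG1 was at 22.7, 19.4 and 23.8 CPM with siANKRD10-2, 25.3, 27.7 and 23.5 CPM with siANKRD10-1 and 25.8, 28 and 28 CPM with siNC. The siANKRD10-2 group lay below siNC and overlapped siANKRD10-1, with changes of -0.31 (SE 0.078, adjusted p = 0.00251) and -0.10 (SE 0.075, adjusted p = 0.464). SNHG17 was at 8.05, 10.3 and 8.56 CPM with siANKRD10-2 against 11.3, 10.6 and 14.3 with siNC. The groups were just apart, with -0.43 (SE 0.12, adjusted p = 0.00479), and -0.29 (adjusted p = 0.0519) without siNC replicate 3. SNHG33 (-0.40, SE 0.15, adjusted p = 0.0416) and SNHG5 (-0.31, SE 0.11, adjusted p = 0.0316) were the other falls. Both were lost under DESeq2 (adjusted p = 0.0748 and 0.0598) and without single libraries, any of the 6 for SNHG33 and siANKRD10-2 replicate 1 or 3 or siNC replicate 1 or 2 for SNHG5.

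ZFAS1, the largest riser under ANKRD10-2, was at 38.4, 40 and 37.8 CPM with siANKRD10-2, 36.8, 33.9 and 37.3 CPM with siANKRD10-1 and 34.3, 36.7 and 42.4 CPM with siNC. The siNC range held all siANKRD10-2 libraries, and neither change was called (0.04, SE 0.07, adjusted p = 0.734, and -0.07, SE 0.076, adjusted p = 0.623). EPB41L4A-AS1 was at 18.4, 21.8 and 20.6 CPM with siANKRD10-2, 22.1, 20.7 and 24.5 CPM with siANKRD10-1 and 19.7, 19.7 and 22.4 CPM with siNC. The groups overlapped, with -0.02 (SE 0.081, adjusted p = 0.85) and 0.12 (SE 0.082, adjusted p = 0.402). The rises were in SNHG21, the host of SCARNA15, and SNHG11. SNHG21 was at 6.68, 7.23 and 8.66 CPM with siANKRD10-2 against 5.17, 5.43 and 5.98 with siNC, without overlap, a rise of 0.45 (SE 0.13, adjusted p = 0.00619), which was 0.34 (adjusted p = 0.0635) without siANKRD10-2 replicate 3. SNHG11 rose by 0.95 (SE 0.35, adjusted p = 0.0371) from a mean of 27.9 normalized counts, with overlapping groups, and was lost without siANKRD10-2 replicate 1 or 3 or siNC replicate 1 or 2 (adjusted p = 0.0731 to 0.211). The 1 call with siANKRD10-1 was SNHG22, the host of SCARNA17, at 2.88, 2.96 and 2.64 CPM against 4.14, 4.1 and 4.09 with siNC. All 3 libraries lay below siNC, by -0.54 (SE 0.15, adjusted p = 0.025), a call lost without siANKRD10-1 replicate 1 or 3 or siNC replicate 1 or 2 (adjusted p = 0.0737 to 0.0944).

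Compared directly, siANKRD10-2 was above siANKRD10-1 for 3 of 27 members and below for 6, where 18.2% of all genes tested were called higher and 18.8% lower. The largest differences were SNHG8 at -0.74 (SE 0.13, adjusted p = 0.000146), SNHG21 at 0.55 (SE 0.13, adjusted p = 0.00206) and SNHG22 at 0.50 (SE 0.16, adjusted p = 0.015). GAS5 was at -0.35 (SE 0.068, adjusted p = 0.000253), and 0 members passed a log2 fold change of at least 1 (2.73% of all genes). Beside the overexpression experiment, which has other controls, 5 members were higher with ANKRD10-2 and lower with siANKRD10-2: GAS5, SNHG1, SNHG5, SNHG8 and SNHG17. They are 33.3% of the 15 that rose and 83.3% of the 6 that fell, where the shares over all 18279 genes tested in both were 34.9% and 21.1%. A rise in both was called for 0 members, beside 17.1% of all genes that rose with ANKRD10-2. Over the 26 members tested in both, 16 had a value above 0 with ANKRD10-2 and below 0 with siANKRD10-2, as did 28% of all genes. Of the 14 members that rose in KO1 and were tested in the overexpression experiment, 12 (85.7%) also rose with ANKRD10-2, and of the 10 that rose in KO2, 7 (70.0%) did. Among all genes joined by symbol, 25.2% of those that rose in KO1 and 25% of those that rose in KO2 also rose with ANKRD10-2.

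The proteins that bind snoRNAs were taken as further lists, to be read beside the shares of all genes called higher and lower: 17.9% and 18.2% in KO1, 19.3% and 19.2% in KO2, 3.5% and 2.81% with ANKRD10-1, 10.7% and 9.25% with ANKRD10-2, 5.08% and 5.52% with siANKRD10-1, and 17.6% and 18.7% with siANKRD10-2. Of the 4 box C/D core proteins (FBL, the methyltransferase, with NOP56, NOP58 and SNU13), 1 rose and 1 fell in KO1, 3 rose in KO2, 2 rose with ANKRD10-1, 3 rose with ANKRD10-2, 0 changed with siANKRD10-1 and 3 fell with siANKRD10-2. NOP56 was at 0.44 (SE 0.038) in KO2 and 0.41 (SE 0.05) with ANKRD10-2, while FBL was at -0.32 (SE 0.045) in KO1. Of the 4 H/ACA core proteins, 3 rose in KO1, 2 in KO2, 2 with ANKRD10-1 and 2 with ANKRD10-2. With siANKRD10-1, NHP2 rose by 0.26 on the log2 scale (SE 0.08, adjusted p = 0.0449), and with siANKRD10-2 NOP10 fell by 0.84 (SE 0.12, adjusted p = 3.73e-06). DKC1, the pseudouridine synthase, was at 0.40 (SE 0.047) with ANKRD10-1 and 0.39 (SE 0.049) with ANKRD10-2. Among 10 snoRNP assembly factors, 4 rose and 1 fell in KO1, 4 rose in KO2, 1 rose with ANKRD10-1, 2 rose and 1 fell with ANKRD10-2, 2 rose and 1 fell with siANKRD10-1, and 3 rose and 1 fell with siANKRD10-2. NOLC1, a nucleolar chaperone of these particles, was at 0.41 (SE 0.044) with ANKRD10-2 and also at 0.61 (SE 0.054, adjusted p = 7.86e-07) with siANKRD10-1.

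Lists on decay and on TOP RNAs were read beside the same shares of all genes. Of 10 nonsense-mediated decay factors, 2 rose and 1 fell in KO1, 2 rose and 2 fell in KO2, 0 were called with ANKRD10-1 or ANKRD10-2, with medians of 0.02 and 0.04, and 1 fell with siANKRD10-1. With siANKRD10-2, 4 rose and 2 fell, among them UPF2 at 0.36 (SE 0.056) and UPF1, the helicase of the pathway, at -0.42 (SE 0.056). Of 5 messenger RNAs known as substrates of this decay (ATF4, GADD45A, GADD45B, TBL2 and NAT9), 4 rose in KO1, 2 in KO2, 4 with ANKRD10-1 and 3 with ANKRD10-2, with 0 falls there, while 1 rose with siANKRD10-1 and 2 rose and 1 fell with siANKRD10-2. These genes also respond to stress and growth signals. GADD45A, a stress-induced growth arrest gene, rose by 1.08 (SE 0.073, adjusted p = 1.78e-07) with ANKRD10-2 and by 0.95 (SE 0.11, adjusted p = 3.85e-05) in KO2. Among 4 proteins that bind TOP RNAs, 3 rose in KO1, 2 in KO2, 1 with ANKRD10-1 and 2 with ANKRD10-2. With siANKRD10-1, 0 rose and 1 fell, and with siANKRD10-2, 0 rose and 2 fell. LARP1, which binds TOP starts, was at 0.29 (SE 0.034) in KO2 and at -0.23 (SE 0.073, adjusted p = 0.0455) with siANKRD10-1.

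Protein-coding genes can also host snoRNAs, and the annotation gave 159 of them, read beside the same shares of all genes. In KO1, 64 of 155 tested rose and 21 fell, and in KO2, 51 rose and 28 fell. With ANKRD10-2, 65 of 153 rose and 10 fell, and with ANKRD10-1, 40 of 154 rose and 3 fell. With siANKRD10-2, 25 of 152 rose and 53 fell, and with siANKRD10-1, 6 of 151 rose and 9 fell. Their median log2 fold changes were 0.12 in KO1, 0.06 in KO2, 0.13 with ANKRD10-2 and -0.07 with siANKRD10-2, against 0.25, 0.08, 0.30 and -0.07 for the members. ODC1, the first enzyme of polyamine synthesis, rose most among them with ANKRD10-2 (0.78, SE 0.068, adjusted p = 2.98e-06), and RPL30, a ribosomal protein of the large subunit, fell most with siANKRD10-2 (-0.79, SE 0.059, adjusted p = 6.53e-11). The small RNAs themselves are mostly lost in libraries selected for poly(A) tails. Only 3 of the small RNA genes inside members passed the filter in the knockout experiment and 14 in the overexpression experiment, and 1 was called, SNORD49B inside SNHG29 with ANKRD10-2 (0.66, SE 0.088, adjusted p = 0.000149). Reads from the intron of the host and from the small RNA cannot be told apart in these counts.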

How the data were processed

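Poly(A) RNA of 5637 cells was sequenced in 30 libraries. The deposited tables hold raw counts of reads per gene, which the authors made without normalization. Per the labels, reads were trimmed with Trimmomatic 0.36 and counted with featureCounts of Subread 1.5.1 on GRCh38. The methods of the study also name Cutadapt, HISAT2 and StringTie, and whether strand was used in counting is not given in the sources used here. All count columns were mapped to samples by name, and groups came from the labels.

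Counts were analysed in R 4.3.3. In each comparison only the libraries of the groups compared entered the fit, and the difference between the knockouts was tested over all libraries of that table. Genes were kept by filterByExpr (minimum count 10, minimum total count 15), normalized by TMM and tested with the quasi-likelihood test of edgeR 4.0.16, which stands behind every adjusted p, with p-values adjusted by Benjamini-Hochberg across the whole table that passed the filter (threshold 0.05, prior count 0.125). An exact permutation test of 3 against 3 cannot give a p under 0.1. The pipeline was tested on simulated data. The depth is given with the results, and SE and SD cover the spread between libraries.

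Genes of the knockout table, listed by Ensembl identifier, were given current symbols or, where there was none, those of GENCODE v29, and shares over all genes of different experiments use the symbols that occur once in each table. Exon lengths came from the tables or, for the knockout table, from GENCODE v29. Small RNA genes inside members came from RefSeq, which gave no strand, and those that GENCODE v29 puts on the other strand were dropped. Small RNA genes absent from GENCODE v29, such as the 11 inside GAS5, were not checked for strand. Values in every library are given for GAS5, ZFAS1, EPB41L4A-AS1 and SNHG1 in the 6 comparisons with a control group, for the 3 largest called changes per comparison and direction among members whose normalized counts averaged 50 or more, and for members called in both knockouts (3 in the same direction, and those in opposite directions). SNHG8, SNHG29, SNHG9 and SNHG31 and the genes that overlap members were added after their values were seen where this rule did not name them. From the pathway lists, at most the largest called rise and fall per comparison are named. The members and lists were chosen with earlier results of these data known. Alternatives were other size factors, total counts alone, no filter on low counts, DESeq2 1.42.0, the replicate number as a block, all libraries of a table in 1 fit, all 6 wild-type libraries as the control, a fold threshold and each library left out in turn. Replicates of a group differed by 3.87 to 17.26 in chi-square per gene, so none was a copy of another.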

Additional observations from a re-analysis of the deposited data

Results flagged for a closer look

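For 6 host genes the change from wild type differed between the knockout lines by a test of the difference itself. The test was KO1 against WT1 minus KO2 against WT2 (edgeR's quasi-likelihood test over all 12 libraries of the knockout experiment). It compares the lines, in which the clone and RBPMS loss cannot be told apart. The difference was -1.02 on the log2 scale for SNHG14, 0.51 for SNHG32, 0.50 for SNHG7, 0.46 for SNHG29, 0.31 for SNHG3 and 0.25 for GAS5. Those of SNHG14, SNHG32, SNHG7 and SNHG29 passed under every alternative that was run, the fold threshold aside, which SNHG14 alone passed. The 6 are 6 of 31 members tested, where 23.3% of all genes tested were called. For SNHG7, whose difference is 0.50, the genes of its chromosome differed in the same direction, with medians of 0.43 over 770 genes of chromosome 9 and 0.32 over 119 genes within 5 Mb. SNHG3 (adjusted p = 0.0498) was lost under 14 alternatives and GAS5 (adjusted p = 0.0359) under 10. SNHG7 was at 29.1, 25.7 and 25.7 CPM in KO1 against 20.3, 16.2 and 17 in WT1, and at 19.8, 20.6 and 18.4 CPM in KO2 against 17.6, 18.5 and 19.4 in WT2. SNHG3 rose in both knockouts, so its difference is one of size and not of direction.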

How the results depend on the processing

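Of the members called in each comparison, those called under every alternative, the fold threshold aside, were 12 of 17 in KO1, 9 of 13 in KO2, 5 of 9 with ANKRD10-1, 12 of 15 with ANKRD10-2, 0 of 1 with siANKRD10-1, 3 of 8 with siANKRD10-2, 4 of 7 between the overexpression groups, 5 of 9 between the knockdown groups, 4 of 6 for the difference of the knockouts and 0 of 2 between the wild types. No member value that was called changed sign. With a log2 fold change of at least 1 also required, 2 members were called in KO1 (SNHG4 and SNHG9), 1 for the difference of the knockouts (SNHG14) and 0 in each of the other comparisons. With single libraries left out, there were 14 to 16 calls in KO1, 11 to 13 in KO2, 7 to 9 with ANKRD10-1, 12 to 14 with ANKRD10-2, 0 to 2 with siANKRD10-1, 4 to 7 with siANKRD10-2, 4 to 8 between the overexpression groups, 7 to 11 between the knockdown groups, 4 to 6 for the difference and 0 to 1 between the wild types. Among these, the counts that moved by over 1.5 times were 4 with siANKRD10-2 without siANKRD10-2 replicate 3, 5 without siNC replicate 2, 4 between the overexpression groups without ANKRD10-1 replicate 1, and 0 with siANKRD10-1 without siANKRD10-1 replicate 1 or 3 or siNC replicate 1 or 2 and 2 without siNC replicate 3. Between the wild types, 0 members were called without WT1 replicate 1 or 3 or WT2 replicate 1 or 2, and 1 without WT1 replicate 2 or WT2 replicate 3. With siANKRD10-1 there were 2 calls with no filter, 2 with all libraries of the table in the fit and 3 with the replicate number as a block. DESeq2 gave 5 calls with siANKRD10-2. Between the wild types there were 0 calls with no filter, 5 with DESeq2 and 1 with the replicate block. The cause of these moves was not tested. Libraries with the same number did not deviate together (correlations of -0.03 to 0.08), so the numbers are not a pairing. Depth limits the members with few counts, such as SNHG9, SNHG22, SNHG25 and SNHG31.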
